A study of Homo sapiens with 30 samples.

Results

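The 40 genes of the G2/M phase and of mitosis described here form the machinery that a dividing cell switches on between the end of DNA replication and the split into daughter cells. They were taken from a list of gene symbols matched to the tables; the rule uses no measured value, though the list was drawn up with earlier results of these data known. All 40 were found among the 38526 genes of the table of the first experiment and among the 36291 genes of the retransplantation table, and all 40 passed the filter on low counts in both. They lie on 16 chromosomes, and none was counted in fewer than 33 reads in a sample of the first experiment or 190 in one of the retransplantation.

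The cells were 2 subclones, called subclone 13 and subclone 2, of MDA-MB-231, a human line of triple-negative breast cancer. They carried lentiviral LeGO barcodes and had grown in NSG mice, which lack T, B and NK cells. Cells of each subclone were sorted from lung metastases, liver metastases and primary tumours of mice 1, 2 and 3, which gave 6 groups of 3 samples in the first experiment. A retransplantation experiment gave cells of subclone 2 labelled lung metastasis or liver metastasis from mice 4, 5 and 6, with no primary tumour. It is not stated there if the organ is the source of the retransplanted cells or the place of their growth. Each subclone is 1 marked clone, and all groups are cells grown in mice.

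Depth ran over samples of the first experiment between 11.8 and 82.2 M counts, and over the retransplanted samples between 23.4 and 32.3 M. Summed over 8 genes known in this line, with VIM the highest, the level was 7266 to 14684 CPM (counts scaled to the size of the library) in the 18 samples of the first experiment and 6993 to 12709 CPM in the 6 retransplantation samples. Of 8 genes listed as absent from this line, CLDN4 was at 86.9 to 321 CPM and EPCAM at 11.5 to 61.6 CPM, against that listing. The host is a mouse, so RNA of its cells enters only where mouse reads were counted on human genes. Of 9 hepatocyte genes, SERPINA1 led with up to 222 CPM, and the list summed to 29.5 to 230 CPM in the first experiment and 13.5 to 76.4 CPM in the retransplantation. The defining hepatocyte gene ALB was at 0.756 CPM or less and SFTPC of alveolar type 2 cells at 3.19 CPM or less in all 24 samples.

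In a dividing cell, cyclin B with the kinase CDK1 starts mitosis, kinetochores built on centromeres catch spindle microtubules, and the spindle checkpoint holds the anaphase-promoting complex until all chromosomes are attached. Transcription of these genes peaks in G2 and mitosis. In quiescent cells the DREAM complex holds many of them down through promoter elements named CHR, and in cycling cells B-MYB with MuvB and FOXM1 raise them, often with NF-Y on CCAAT boxes. Because of this, their summed RNA is widely read as a measure of how many cells of a sample are dividing. In bulk RNA a lower level of such genes in fewer dividing cells and a lower level per dividing cell cannot be told apart.

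Promoters are shown for genes on which the results below turn. The table of RefSeq promoters (GRCh38.p14) held 33 of the 40 members, 6 of them with several starts. BUB3, TTK, BIRC5, UBE2C, TPX2, FOXM1 and AURKA were not among them. The 250 bases before each start were searched on both strands for CCAAT, for the CHR letters TTTGAA or TTTAAA, and for the E2F-like letters TTTCCCGC or TTTGGCGC. CCAAT was found in 27 of 33 members (81.8%), against 37% of all 27305 genes of the table and 40.2% of its 15843 protein-coding genes. At least 2 CCAAT boxes stood before 54.5% of members, against 13.7% of protein-coding genes. A CHR motif was found in 24 of 33 members (72.7%), against 22.9% of protein-coding genes, and both motifs in 63.6% of members, against 8.9%. E2F-like letters were found in 1 member, CENPA (3.03%), against 3.18% of protein-coding genes. In 3 members, NDC80, NUF2 and KIF2C, neither CCAAT nor CHR letters stood in this window. None of these shares was tested, and a match is a match of letters only.

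The bases before the start of 4 members called lower in lung than in liver of subclone 2 in a fit with the mouse as a term, and of CCNB1 and PLK1, read 5′ to 3′ on the strand of the gene, carry the motifs in capitals. The last base printed is the base before the start.
TOP2A (chr17:40417897-40418146, minus strand): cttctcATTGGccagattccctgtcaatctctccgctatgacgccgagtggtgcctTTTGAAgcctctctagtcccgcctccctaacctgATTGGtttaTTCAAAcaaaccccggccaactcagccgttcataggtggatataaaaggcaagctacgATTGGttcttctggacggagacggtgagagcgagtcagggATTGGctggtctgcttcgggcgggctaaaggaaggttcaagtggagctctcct
BUB1 (chr2:110678064-110678313, minus strand): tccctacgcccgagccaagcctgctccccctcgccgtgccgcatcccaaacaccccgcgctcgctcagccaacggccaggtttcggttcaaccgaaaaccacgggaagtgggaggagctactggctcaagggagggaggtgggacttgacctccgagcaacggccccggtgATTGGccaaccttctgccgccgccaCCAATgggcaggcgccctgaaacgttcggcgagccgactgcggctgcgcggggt
NEK2 (chr1:211675622-211675871, minus strand): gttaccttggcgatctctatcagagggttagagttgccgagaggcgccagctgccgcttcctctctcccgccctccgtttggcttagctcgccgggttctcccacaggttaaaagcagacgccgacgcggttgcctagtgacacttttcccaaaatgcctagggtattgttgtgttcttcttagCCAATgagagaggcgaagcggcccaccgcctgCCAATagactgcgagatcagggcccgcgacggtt
CCNA2 (chr4:121823884-121824133, minus strand): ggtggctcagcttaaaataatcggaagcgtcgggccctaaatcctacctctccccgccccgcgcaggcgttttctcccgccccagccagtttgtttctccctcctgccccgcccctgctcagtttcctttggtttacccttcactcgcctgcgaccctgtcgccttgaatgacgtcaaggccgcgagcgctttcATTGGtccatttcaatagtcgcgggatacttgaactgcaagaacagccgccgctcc
CCNB1 (chr5:69166900-69167149, plus strand): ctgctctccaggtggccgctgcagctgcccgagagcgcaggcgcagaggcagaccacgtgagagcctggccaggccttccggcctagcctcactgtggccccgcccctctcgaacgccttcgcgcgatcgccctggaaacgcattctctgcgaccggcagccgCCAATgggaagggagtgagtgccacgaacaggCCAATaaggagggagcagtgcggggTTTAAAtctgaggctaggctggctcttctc
PLK1 (chr16:23678639-23678888, plus strand): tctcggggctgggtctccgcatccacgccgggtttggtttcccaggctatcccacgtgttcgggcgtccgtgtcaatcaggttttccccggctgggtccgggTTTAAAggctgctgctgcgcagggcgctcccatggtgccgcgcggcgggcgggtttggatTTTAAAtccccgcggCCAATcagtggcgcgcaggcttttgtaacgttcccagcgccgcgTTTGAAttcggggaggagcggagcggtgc
CCNB1 had CCAAT boxes that begin 87 and 55 bases before the start and a CHR 30 bases before it. PLK1 had CHR letters 148, 88 and 29 bases before its start and a CCAAT box 73 bases before it. TOP2A had 4 CCAAT boxes, read as ATTGG on this strand, at 244, 160, 93 and 53 bases, and CHR letters at 194 and 151 bases. BUB1, NEK2 and CCNA2 had 2, 2 and 1 CCAAT boxes and no CHR letters as searched. Of the genes with no promoter shown, TTK (chr6:80003887-80042527, plus strand) and TPX2 (chr20:31739271-31801805, plus strand) are given here by their whole extent in GENCODE on GRCh38.

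Per length of exon, the members ranged in the first experiment from 1.52 FPKM for HMMR to 122 FPKM for UBE2C (TMM-scaled CPM per kilobase of exon, mean of 18 samples). Their median was 14.4 FPKM, against 3.14 FPKM over all 17418 genes that passed the filter. After UBE2C, the ubiquitin-conjugating enzyme of the anaphase-promoting complex, came CCNB1 (55.6 FPKM), the spindle assembly factor TPX2 (54.6 FPKM) and the DNA topoisomerase TOP2A (49.0 FPKM). These 3 did not differ beyond their spread over samples, with SDs of 19.9, 23.6 and 22.8 FPKM. PTTG1, the securin that holds separase inactive, had 47.8 FPKM and CDK1 had 39.4 FPKM. The lowest levels were those of HMMR, PRC1 (1.61 FPKM), CCNF (2.60 FPKM), the substrate-binding subunit of an SCF ubiquitin ligase, and CDC25C (3.19 FPKM), a phosphatase that activates CDK1.

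The members rose and dipped together from sample to sample. Over the 18 samples of the first experiment, the correlation of a member's log2 CPM with the mean of the other 39 had a median of 0.83, and 36 of 40 were above 0.5. TPX2 followed the others most closely (0.97), and CDC25B, a phosphatase that starts CDK1 activation, did not follow them (-0.11). With the mean of each mouse removed, the median was 0.72 and TPX2 had 0.93. These are descriptions over samples that share mice and libraries.

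**Figure D1:**
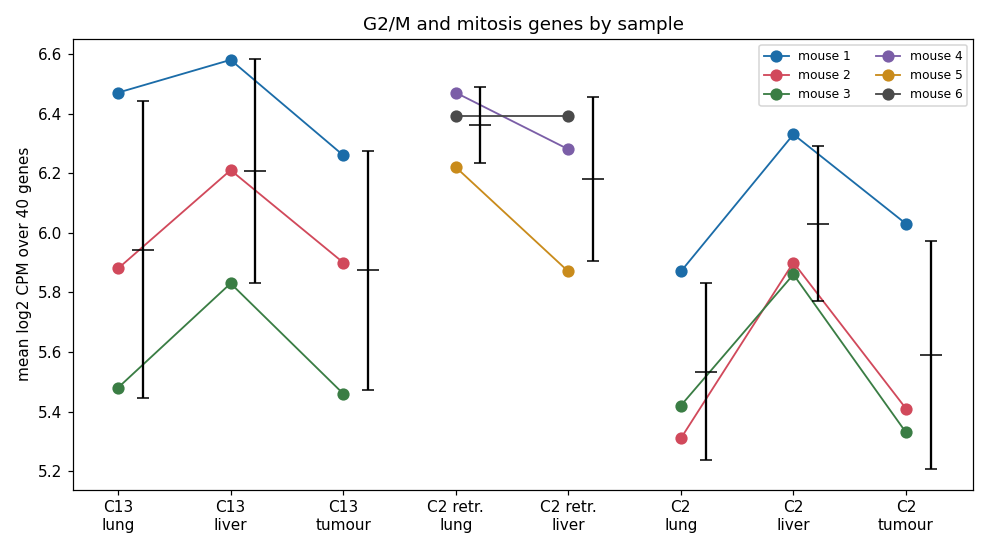
Mean log2 CPM over the 40 genes (y axis) in each sample, by subclone and organ (x axis; C13, subclone 13; C2, subclone 2; retr., retransplantation), with a line joining the samples of 1 mouse and black bars for the group mean ± SD (n = 3). Within each mouse of the first experiment the liver point lies above both the lung point and the tumour point, while the mice themselves lie far apart, with subclone 13 lung from 5.48 to 6.47.

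Samples of different mice differed most, and for most libraries mouse goes with sequencing run. Averaged over the 40 genes, the log2 CPM was 6.26 ± 0.27 in samples of mouse 1, 5.77 ± 0.34 in mouse 2 and 5.56 ± 0.22 in mouse 3 (SD, n = 6 each). Mouse took up a median of 42.2% of the sum of squares of a member over the 18 samples, organ 19.8% and subclone 8.57%. Over all 17418 genes the medians were 27.6%, 13.2% and 4.84%. Mouse was the largest of these 3 shares for 32 members, organ for 5 and subclone for 3. That count was not made over all genes, where mouse also had the largest median. Subclone has fewer levels than mouse or organ, which by itself makes for a smaller share. In subclone 13 lung, mouse 1 was the highest of the 3 mice for 37 members and mouse 3 the lowest for 34, and in subclone 2 tumours mouse 1 was the highest for 37. KIF23, a motor of the central spindle, was an exception, with 0.784% of its sum of squares between mice and 30.4% between organs.

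Mouse and sequencing run were the same for most libraries of the first experiment, but each organ of subclone 13 in mouse 1 was sequenced in runs 1, 2 and 3. Over those 3 libraries the mean log2 CPM of the members was 6.41, 6.37 and 6.37 in lung, 6.47, 6.49 and 6.48 in liver, and 6.19, 6.18 and 6.18 in tumour. A member's range over the 3 libraries had a median of 0.18 on the log2 scale in lung, 0.15 in liver and 0.14 in tumour, against 1.03, 0.91 and 0.66 over the 3 mice. Within run 2, mouse 1 was above mouse 2 by 0.49 in lung, 0.34 in liver and 0.29 in tumour. Within run 3, mouse 1 was above mouse 3 by 0.89 in lung, 0.64 in liver and 0.76 in tumour, with 38, 36 and 37 of the 40 members higher in mouse 1. In subclone 13 the difference between these mice was therefore present within a run.

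**Figure D2:**
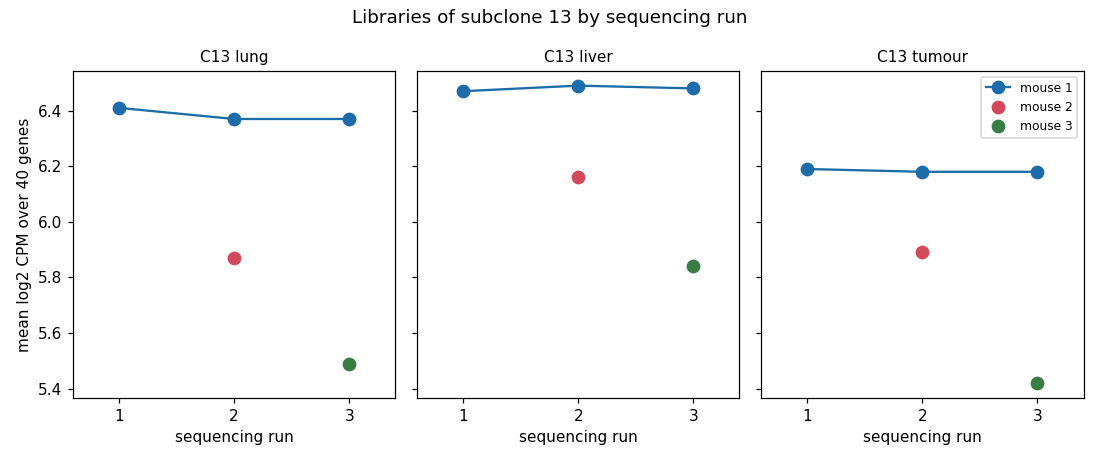
Mean log2 CPM over the 40 genes (y axis) of each library of subclone 13 by sequencing run (x axis), for lung, liver and tumour, coloured by mouse, with a line joining the 3 libraries of mouse 1. The line of mouse 1 is nearly flat, and the points of mouse 2 in run 2 and mouse 3 in run 3 lie below it in each organ.

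Lung against liver metastases of subclone 2 gave the clearest difference between organs. The members' mean log2 CPM was 5.87, 5.31 and 5.42 in lung of mice 1, 2 and 3, against 6.33, 5.90 and 5.86 in liver. Summed, the 40 genes held 3337, 2327 and 2482 CPM in lung, against 4595, 3838 and 3235 CPM in liver. Lung was lower within every mouse, by a mean of 0.50 ± 0.08 (SD over 3 mice, log2). On total counts the mean difference was -0.54 ± 0.15, and on total counts without the 13 mitochondrially encoded genes -0.46 ± 0.13, again with all 3 mice lower. Those 13 genes held 8.43% to 8.9% of the counts in lung, against 3.1% to 4.85% in liver, without overlap, and the part of this share in the result was not tested. By gene, 31 of 40 members were lower in lung in all 3 mice and 0 higher in all 3, where 19.1% of all genes were lower in all 3. The median log2 fold change (lung over liver) was -0.54 over the members and 0.01 over all genes, and 38 of 40 were negative.

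The 2 fits differed in what they called. A gene is called here at a Benjamini-Hochberg adjusted p under 0.05 over all genes tested. The quasi-likelihood test of edgeR without a mouse term called 0 of 40 members (0.023% of all genes were called), with 5 members at an unadjusted p under 0.05 (9.29% of all genes), and DESeq2 gave 0 (1.33%). With the mouse as a term, edgeR called 6 of 40, all lower in lung (2.95% of all genes), and 18 had an unadjusted p under 0.05 (18.6%). In fits with the mouse term and 1 mouse left out, 6 members were called without mouse 1, where 542 of 17921 genes were called. They were NUF2, NEK2, CENPF, BUB1, TOP2A and TPX2, so that TTK and CCNA2 were lost and NUF2 and CENPF gained. Without mouse 3, 2 members were called (TTK and TOP2A), where 83 of 17397 genes were called. Without mouse 2, 0 members were called, where 27 genes of 18150 were called. The median of the members stayed negative in these fits, at -0.60, -0.54 and -0.45.

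TOP2A, which untangles sister chromatids, had 209, 125 and 144 CPM in lung of mice 1, 2 and 3, against 487, 379 and 312 CPM in liver. All 3 lung values lay below all 3 liver values. Its log2 fold change was -1.28 ± 0.23 (SE) with an adjusted p of 0.00666 in edgeR with the mouse term, and -1.30 ± 0.44 with 0.322 without it. TTK (also MPS1), the kinase that starts the spindle checkpoint, had 23.4, 13.8 and 21.9 CPM in lung, against 46.0, 38.2 and 35.3 CPM in liver, again without overlap. It fell by 1.0 on the log2 scale (SE 0.25, edgeR with the mouse term, adjusted p = 0.0393; without the term 0.362). BUB1, a checkpoint kinase at kinetochores, had 58.0, 34.1 and 27.6 CPM in lung, against 96.0, 62.3 and 55.6 CPM in liver. Its groups overlapped because mouse 1 was high in both organs, yet each mouse was lower in lung, and the adjusted p was 0.0123 in edgeR with the mouse term and 0.557 without it.

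TPX2, which activates AURKA on the spindle, had 216, 90 and 88.2 CPM in lung, against 331, 190 and 161 CPM in liver. Its change of -0.84 ± 0.18 had an adjusted p of 0.0182 in edgeR with the mouse term and 0.647 without it. CCNA2, the cyclin A of S phase and G2, had 96.3, 46.8 and 38.2 CPM in lung, against 136, 77.1 and 73.6 CPM in liver (-0.73 ± 0.19, adjusted p = 0.0424 in edgeR with the mouse term, 0.73 without). Exons of CCNA2 overlap those of EXOSC9 on the other strand, and the counts cannot separate reads of such pairs. NEK2, a centrosome kinase, had 36.1, 22.1 and 12.9 CPM in lung, against 40.6, 45.8 and 29 CPM in liver (-0.81 ± 0.21, adjusted p = 0.0428 in edgeR with the mouse term, 0.664 without). For TPX2, CCNA2 and NEK2 the lung and liver ranges overlapped across mice and did not within any mouse.

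The 6 called genes belong to 5 of the 9 roles into which the members were sorted. The spindle checkpoint genes had a median of -0.73 in the fit without a mouse term, with 2 of 5 called with it. Spindle kinesins and microtubule proteins had -0.67, the proliferation markers FOXM1, MKI67 and TOP2A -0.60, centromere and outer kinetochore genes -0.59, the kinases PLK1, AURKA and NEK2 -0.47, and cyclins with CDK1 and CDC25 phosphatases -0.44. The chromosomal passenger complex, which corrects wrong attachments, had -0.33 with 0 of 4 called. Central spindle and cytokinesis genes had -0.24 with 0 of 5 called. CDC20, UBE2C and PTTG1, sorted under anaphase onset and mitotic exit, had -0.13 with 0 of 3 called. In the test without a mouse term 0 members were called in each role.

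Sums of some cell type marker lists shifted between lung and liver of subclone 2, each led by 1 gene, and only the endothelial sums did so without overlap. In subclone 2, 7 endothelial genes summed to 13.8 to 18.5 CPM in lung, against 25.7 to 37.9 CPM in liver, mostly PECAM1, and VWF was at 0.747 CPM or less in all samples of the first experiment. The 9 leukocyte genes listed summed to 60.4 to 119 CPM in lung, against 84.9 to 222 CPM in liver, mostly LAPTM5, with PTPRC at 0.947 CPM or less. The 10 fibroblast, stellate and smooth muscle genes summed to 32.3 to 107 CPM in lung, against 20.9 to 48.5 CPM in liver, mostly COL1A1, with DCN at 0.413 CPM or less. Leukocyte and fibroblast ranges overlapped between the organs, as did those of hepatocyte genes, with 30.3 to 92.4 CPM in lung, against 29.5 to 62.7 CPM in liver. The part of these markers in the result was not tested.

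**Figure D3:**
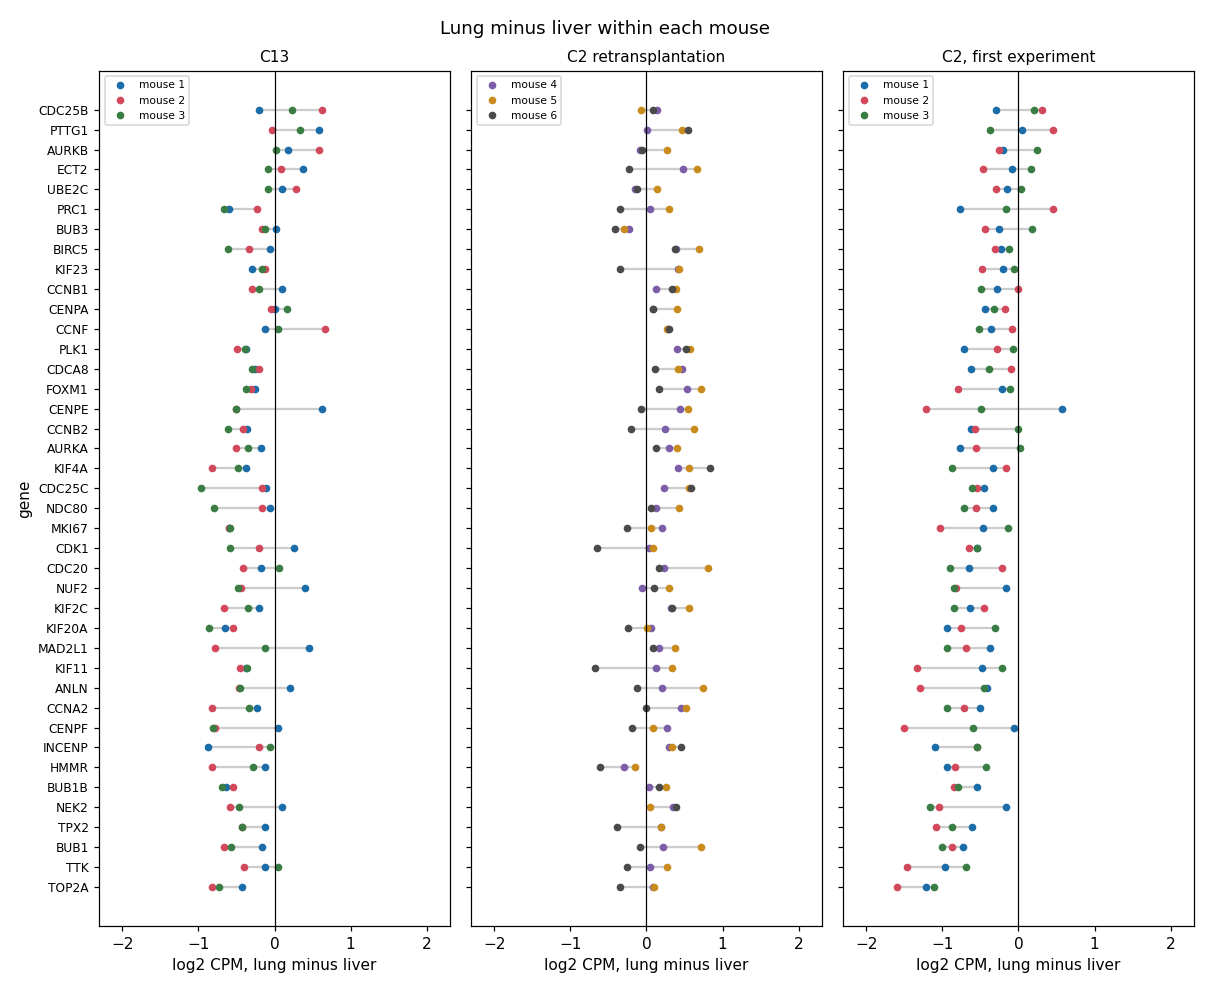
Log2 CPM in lung minus liver (x axis) within each mouse for the 40 genes (y axis, ordered by the mean in subclone 2 of the first experiment), with 1 point per mouse and a grey line over their range. Most points lie left of 0 in both subclones of the first experiment (medians -0.26 in subclone 13 and -0.54 in subclone 2) and right of it in the retransplantation (median 0.19).

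In subclone 13 the same comparison had the same sign and a smaller size. The mean log2 CPM was 6.47, 5.88 and 5.48 in lung of mice 1, 2 and 3, against 6.58, 6.21 and 5.83 in liver, a mean difference of -0.26 ± 0.13 (SD over 3 mice). By gene, 22 of 40 were lower in lung in all 3 mice (19.8% of all genes), and 1, AURKB, was higher in all 3. The median log2 fold change was -0.26, against 0.01 over all genes, and -0.02 without the lung sample of mouse 3. edgeR called 0 of 40 members without the mouse term (0% of all genes), with 1 at an unadjusted p under 0.05 (4.55%), and DESeq2 gave 0 (0.291%). With the mouse term 0 were called (0.276%), with 8 at an unadjusted p under 0.05 (10.9%). The smallest p without the term was that of BUB1B, the checkpoint protein BUBR1, with 41.2, 34.5 and 23.4 CPM in lung, against 64.4, 50.2 and 37.8 CPM in liver (-0.62 ± 0.28, edgeR, adjusted p = 1). KIF20A, a motor of cytokinesis, had 75.9, 62.9 and 35.0 CPM in lung, against 119, 91.5 and 63.4 CPM in liver (-0.66 ± 0.37, edgeR, adjusted p = 1). Exons of KIF20A overlap those of 2 genes on the other strand. Endothelial genes summed to 12.5 to 15.8 CPM in lung, against 19.8 to 41.9 CPM in liver, leukocyte genes to 136 to 258 CPM, against 268 to 363 CPM, and hepatocyte genes to 89.8 to 99.3 CPM, against 149 to 230 CPM. The mitochondrial share of counts was 8.56% to 9.71% in lung, against 3.68% to 4.36% in liver. None of these lung and liver ranges overlapped, and their part was not tested. In tumours of subclone 13, hepatocyte genes, led by SERPINA1, summed to 129 to 227 CPM, and leukocyte genes, led by LAPTM5, to 198 to 295 CPM.

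Taking both subclones, 20 of 40 members were lower in lung than in liver in all 6 pairs of samples from 1 mouse (8.83% of all genes). They were CCNA2, CCNB2, CDC25C, FOXM1, MKI67, TOP2A, PLK1, BIRC5, INCENP, CDCA8, BUB1, BUB1B, NDC80, KIF11, KIF2C, KIF4A, TPX2, HMMR, KIF20A and KIF23. The difference between the subclones in lung against liver was itself tested. The members' median of subclone 13 minus subclone 2 was 0.26, and 0 of 40 were called without the mouse term (0%), with 0 at an unadjusted p under 0.05 (1.98%), 0 by DESeq2 (0%), and 0 with the mouse term (0%), where 1 had an unadjusted p under 0.05 (4.5%). TTK had the largest of these differences, 0.84 ± 0.52 without the term (edgeR, adjusted p = 1). A smaller effect in subclone 13 than in subclone 2 was thus not shown.

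Liver metastases against primary tumours gave differences of like size upward. In subclone 13 the mean log2 CPM was 6.58, 6.21 and 5.83 in liver, against 6.26, 5.90 and 5.46 in tumour, a difference of 0.33 ± 0.03 (SD over 3 mice). In subclone 2 it was 6.33, 5.90 and 5.86 in liver, against 6.03, 5.41 and 5.33 in tumour, a difference of 0.44 ± 0.12. On total counts the mice were further apart, at 0.25, 0.26 and 0.53 in subclone 13 (0.35 ± 0.16). For subclone 2 that scale gave 0.11, 0.46 and 0.72 (0.43 ± 0.31). Liver was above tumour in all 3 mice for 19 members in subclone 13 (13.9% of all genes) and for 26 in subclone 2 (15.9%). In all 6 pairs it was above for 17 members (4.73%), among them CDK1, CCNB1, AURKA, TTK and MAD2L1.

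The median log2 fold change of the members, liver over tumour, was 0.39 in subclone 13 and 0.49 in subclone 2, against 0.02 and 0.05 over all genes. In subclone 13, edgeR called 0 of 40 without the mouse term (0.385% of all genes), with 0 at an unadjusted p under 0.05 (5.98%), and DESeq2 gave 0 (1.44%). With the mouse term 0 were called (1.83%) and 12 had an unadjusted p under 0.05 (11.1%). In subclone 2, edgeR called 0 without the term (0.287%), with 3 at an unadjusted p under 0.05 (6.65%), and DESeq2 gave 0 (1.18%). With the mouse term 1 member, TTK, was called higher in liver (1.68%), and 22 of 40 had an unadjusted p under 0.05 (12.5%).

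TTK had 46.0, 38.2 and 35.3 CPM in liver of subclone 2, against 27.1, 22.9 and 11.9 CPM in tumour. The groups did not overlap, and the change was 1.02 ± 0.25 with an adjusted p of 0.0455 in edgeR with the mouse term and 0.524 without it. That call was lost with the mouse term and RLE size factors in place of TMM, without any 1 of the 3 mice, and with only the groups compared. NUF2, a subunit of the NDC80 complex that binds microtubules, had 32.1, 35.6 and 33.7 CPM in liver, against 25.1, 23.2 and 18.6 CPM in tumour, again without overlap (0.60 ± 0.27, edgeR, adjusted p = 0.698). Exons of NUF2 overlap those of RGS5 on the other strand. In subclone 13 the smallest p values were those of KIF23, with 88.2, 78.2 and 74.3 CPM in liver against 71.8, 55.9 and 46.8 CPM in tumour (0.46 ± 0.23, edgeR, adjusted p = 0.909), and of BUB1B, with 64.4, 50.2 and 37.8 CPM in liver against 46.3, 29.3 and 29.2 CPM in tumour (0.54 ± 0.28, edgeR, adjusted p = 0.946). KIF23 in liver lay above tumour in all samples, and BUB1B overlapped.

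Endothelial genes summed to 19.8 to 41.9 CPM in liver of subclone 13, against 17.1 to 23.7 CPM in tumour, and to 25.7 to 37.9 CPM in liver of subclone 2, against 15.3 to 20.9 CPM in tumour. Fibroblast, stellate and smooth muscle genes summed to 20.9 to 48.5 CPM in liver of subclone 2, against 65.1 to 140 CPM in tumour. Their part was not tested. A difference between the subclones in liver against tumour was not shown, in a test that called almost no gene at all. Subclone 13 minus subclone 2 had a member median of -0.12, with 0 called without the mouse term (0%), 0 at an unadjusted p under 0.05 (1.71%), 0 by DESeq2 (0.00533%), and with the mouse term 0 called (0.00574%) and 0 at an unadjusted p under 0.05 (3.65%).

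Lung metastases against primary tumours moved the members little and in no common direction. The mean within-mouse difference was 0.07 ± 0.12 in subclone 13 and -0.06 ± 0.12 in subclone 2 (SD over 3 mice, log2). On total counts without the mitochondrially encoded genes it was 0.14 ± 0.09 in subclone 13, with all 3 mice higher in lung. In subclone 2 it was -0.03 ± 0.24 on that scale. In subclone 13, 5 members were higher in lung in all 3 mice (20.5% of all genes) and 2 lower (21.4%), and in subclone 2, 5 were higher (20.2%) and 8 lower (19.6%). Medians of the log2 fold change were 0.14 and -0.07, against 0.03 and 0.05 over all genes. In subclone 13, edgeR called 0 of 40 without the mouse term (0.419%), 0 at an unadjusted p under 0.05 (7.76%), DESeq2 0 (1.95%), and edgeR with the mouse term 0 (2.89%), with 3 at an unadjusted p under 0.05 (14.4%). In subclone 2 the counts were 0 without the term (0.436%), 0 at an unadjusted p under 0.05 (9.32%), 0 by DESeq2 (1.61%), 0 with the term (3.05%) and 3 at an unadjusted p under 0.05 (17.3%). The test of subclone 13 minus subclone 2 called 0 members without the term (0%), 0 at an unadjusted p under 0.05 (0.792%), 0 by DESeq2 (0%), and with the term 0 (0%) and 0 at an unadjusted p under 0.05 (1.85%).

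PTTG1 had the highest log2 fold change of the 40 in both subclones, with 182, 119 and 95.5 CPM in lung of subclone 13, against 93.4, 84.5 and 79.7 CPM in tumour (0.62 ± 0.36, edgeR, adjusted p = 0.798). Subclone 2 showed 146, 75.0 and 66.5 CPM in lung, against 82.0, 47.1 and 60.5 CPM in tumour (0.60 ± 0.36, edgeR, adjusted p = 0.681). Its lung value exceeded the tumour value in all 6 pairs. MKI67, the Ki-67 antigen used to score dividing cells, had the lowest in both, with 139, 154 and 107 CPM in lung of subclone 13, against 259, 222 and 85.4 CPM in tumour. Cells of subclone 2 had 109, 128 and 122 CPM in lung, against 269, 183 and 108 CPM in tumour (-0.64 ± 0.37, edgeR, adjusted p = 0.664). Mouse 3 went the other way from mice 1 and 2 in both subclones. ECT2, the exchange factor that turns on RhoA for cytokinesis, had 200, 203 and 132 CPM in lung of subclone 13, against 169, 119 and 72.8 CPM in tumour (0.57 ± 0.29, edgeR, adjusted p = 0.691). Subclone 2 had 142, 155 and 182 CPM of ECT2 in lung, against 151, 146 and 93.7 CPM in tumour, so that mouse 1 was lower and mice 2 and 3 higher. In both subclones the mitochondrial share of counts was higher in lung than in tumour without overlap, at 8.56% to 9.71% against 2.86% to 3.45% in subclone 13 and 8.43% to 8.9% against 2.84% to 3.95% in subclone 2, and its part was not tested.

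**Figure D4:**
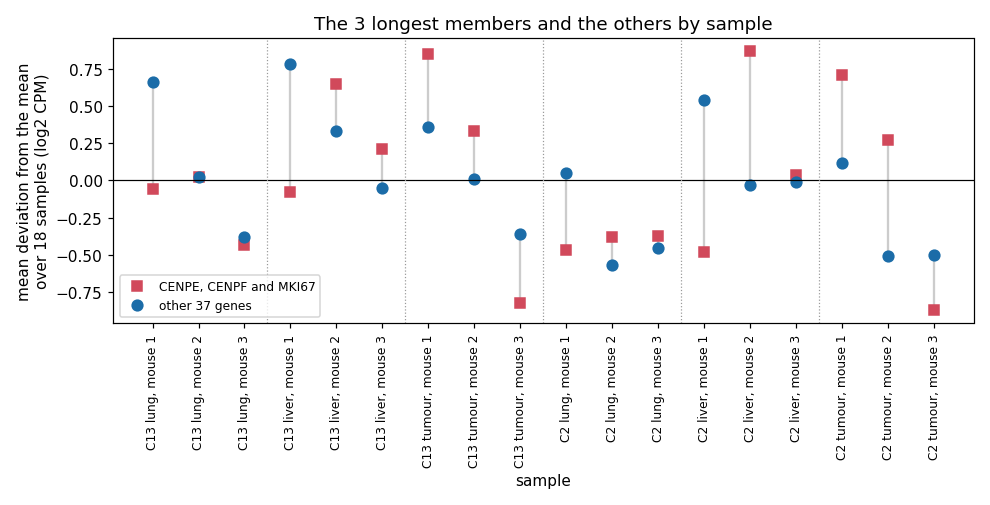
Mean deviation of log2 CPM from the mean over the 18 samples of the first experiment (y axis) for the 3 members with the longest exons and for the other 37 (points), by sample (x axis). In the lung and liver samples of mouse 1 the 3 longest members lie below the others, at -0.48 against 0.54 in subclone 2 liver, and in its tumours above them. They also lie above the others in liver and tumour of subclone 2 in mouse 2, at 0.87 against -0.03 in liver, and below them in tumours of mouse 3.

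The 3 members with the longest exons, MKI67 (12.8 kb), CENPF (11.7 kb) and CENPE (9.44 kb), did not move with the rest in mouse 1, nor in some samples of mice 2 and 3. In liver of subclone 13 in mouse 1 they averaged -0.08 from their mean, where the other 37 averaged 0.78. In liver of subclone 2 in mouse 1 they averaged -0.48, where the others averaged 0.54. In tumours of mouse 1 they averaged 0.85 in subclone 13 and 0.71 in subclone 2, where the others averaged 0.36 and 0.12. For subclone 2 in mouse 2 they averaged 0.87 in liver and 0.27 in tumour, where the others averaged -0.03 and -0.51. In tumours of mouse 3 they averaged -0.82 in subclone 13 and -0.87 in subclone 2, where the others averaged -0.36 and -0.50. CENPE, a kinesin that carries chromosomes to the spindle equator, had 28.3, 77.8 and 58.4 CPM in liver of subclone 13 in mice 1, 2 and 3, against 90.7, 62.0 and 30.5 CPM in tumour. Across the 40 members, the rank correlation of exon length with the deviation was -0.58, -0.30 and 0.28 in lung, liver and tumour of subclone 13 in mouse 1, and -0.56, -0.40 and 0.31 in subclone 2. Over all 17418 genes it was -0.21, 0.01 and 0.18, and -0.18, -0.04 and 0.18 in the same samples. The largest over the members were 0.55 in liver and 0.68 in tumour of subclone 2 in mouse 2, apart from the values of mouse 1 above. Over all genes those 2 samples had 0.16 and 0.09. With length, the members' log2 fold change of lung over tumour correlated at -0.38 in subclone 13 and -0.58 in subclone 2 (rank correlation, n = 40 genes that share libraries), and that of lung over liver at -0.30 and -0.28. What part length or RNA quality has in these values was not tested.

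Subclone 13 had higher levels than subclone 2 in most comparisons within an organ. The mean difference within mice, subclone 13 minus subclone 2, was 0.29 ± 0.19 in tumour, 0.41 ± 0.30 in lung and 0.18 ± 0.18 in liver, where mouse 3 had -0.03. On total counts it was 0.19 in tumour, 0.34 in lung and 0.10 in liver. The members' median log2 fold change was 0.28 in tumour, 0.44 in lung and 0.17 in liver. Without the sample of subclone 13 from mouse 1 it was 0.10, 0.17 and -0.01, so the sign in liver was lost. Without the sample of subclone 2 from mouse 1 it was 0.50, 0.70 and 0.30. In tumour 26 members were higher in subclone 13 in all 3 mice (25.1% of all genes), in lung 20 (19.9%) and in liver 9 (16.7%). In lung all 40 log2 fold changes of edgeR were positive, from 0.02 for NDC80 to 0.93 for TOP2A, and 39 of those of DESeq2. The mean difference in lung was 0.60 in mouse 1 and 0.58 in mouse 2, but 0.06 in mouse 3. In tumour the members' log2 fold change correlated with exon length at -0.65 (rank correlation over 40 genes), and the part of length was not tested.

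In tumour, edgeR called 0 of 40 without the mouse term (0.109%), with 1 at an unadjusted p under 0.05 (4.36%), and DESeq2 gave 0 (0.517%), while with the term 0 were called (0.505%) and 7 had an unadjusted p under 0.05 (9.15%). In lung, 0 were called without it (0.184%), with 3 at an unadjusted p under 0.05 (7.03%), 0 by DESeq2 (1.13%), 0 with it (1.54%) and 15 at an unadjusted p under 0.05 (13.3%). In liver, 0 were called without it (0.247%), with 1 at an unadjusted p under 0.05 (7.23%), 0 by DESeq2 (1.27%), 0 with it (1.5%) and 2 at an unadjusted p under 0.05 (13.2%). NUF2 had 52.5, 33.1 and 27.0 CPM in lung of subclone 13, against 28.5, 20.1 and 18.8 CPM in lung of subclone 2 (0.74 ± 0.28, edgeR, adjusted p = 0.496). CDK1 had 251, 216 and 97.2 CPM in lung of subclone 13, against 141, 91.9 and 103 CPM in lung of subclone 2 (0.75 ± 0.33, edgeR, adjusted p = 0.642), and mouse 3 did not share the difference. LAPTM5 led the leukocyte genes, which summed to 136 to 258 CPM in lung of subclone 13, against 60.4 to 119 CPM in lung of subclone 2. In tumour they summed to 198 to 295 CPM in subclone 13, against 70.1 to 112 CPM in subclone 2, and in liver to 268 to 363 CPM, against 84.9 to 222 CPM. Hepatocyte genes, led by SERPINA1, summed to 129 to 227 CPM in tumour of subclone 13, against 61 to 72 CPM in subclone 2, and in liver to 149 to 230 CPM, against 29.5 to 62.7 CPM. The part of these markers was not tested.

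In the retransplantation experiment lung was not below liver. The mean log2 CPM of the members was 6.47, 6.22 and 6.39 in lung of mice 4, 5 and 6, against 6.28, 5.87 and 6.39 in liver, a difference of 0.18 ± 0.17 (SD over 3 mice). Mouse 6 showed a difference of 0.00 here, and of -0.11 when CPM was scaled by total counts. In this experiment 18 of 40 members were higher in lung in all 3 mice (20.2% of all genes) and 2, HMMR and BUB3, lower in all 3 (20.6%). The median log2 fold change was 0.19, against -0.03 over all genes. edgeR called 0 of 40 without the mouse term (0% of 17549 genes), with 3 at an unadjusted p under 0.05 (12.5%), and DESeq2 gave 0 (2%). With the mouse term 0 were called (0.479%), with 7 at an unadjusted p under 0.05 (16.6%).

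KIF4A, a chromokinesin, had 91.1, 75.4 and 89.0 CPM in retransplanted lung, against 68.0, 51.2 and 50.1 CPM in liver. The groups did not overlap (0.59 ± 0.18, edgeR, adjusted p = 0.26 without and 0.147 with the mouse term). Exons of KIF4A overlap those of PDZD11 on the other strand. INCENP, the scaffold of the chromosomal passenger complex, had 58.9, 58.2 and 64.5 CPM in lung, against 48.1, 46.3 and 47.1 CPM in liver, without overlap (0.36 ± 0.14, edgeR, adjusted p = 0.333). PLK1 had 65.8, 51.7 and 72.5 CPM in lung, against 49.7, 34.9 and 50.6 CPM in liver, without overlap (0.49 ± 0.20, edgeR, adjusted p = 0.38). The 6 genes called lower in lung in the first experiment with the mouse term were all higher in lung in mice 4 and 5, NEK2 also in mouse 6, and the other 5 were not. TOP2A had 360, 291 and 289 CPM in retransplanted lung, against 339, 272 and 368 CPM in liver, and BUB1 had 92.9, 69.0 and 74.8 CPM, against 80.0, 41.7 and 79.7 CPM. NEK2 had 57.1, 45.1 and 49.6 CPM in lung, against 44.9, 43.8 and 37.8 CPM in liver, without overlap. Endothelial genes summed to 20.2 to 28.8 CPM in retransplanted lung, against 9.37 to 23.1 CPM in liver, and leukocyte genes to 71.4 to 170 CPM, against 183 to 307 CPM. Hepatocyte genes, led by SERPINA1, summed to 13.5 to 27.3 CPM in lung, against 37.9 to 76.4 CPM in liver. The mitochondrial share of counts was 5.17% to 9.9% in lung, against 5.62% to 7.01% in liver. The part of these values was not tested.

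The difference between the experiments was tested on lung over liver of subclone 2, retransplantation minus the first experiment, over 19721 genes. The members' median was 0.73, against -0.01 over all genes, and 38 of 40 were positive. edgeR called 0 of 40 without the mouse term (0.00507%), with 7 at an unadjusted p under 0.05 (6.22%), and DESeq2 gave 0 (0.0796%). With the mouse term 0 were called (0.071%), 22 had an unadjusted p under 0.05 (12.5%), and the smallest adjusted p was 0.0919, for BUB1. TOP2A had the largest difference, 1.26 ± 0.54 (edgeR, adjusted p = 0.735 without and 0.114 with the mouse term). That the experiments differ in these genes was not shown at the threshold. Experiment, mice and run cannot be told apart in levels, so levels were not compared across the experiments.

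**Figure D5:**
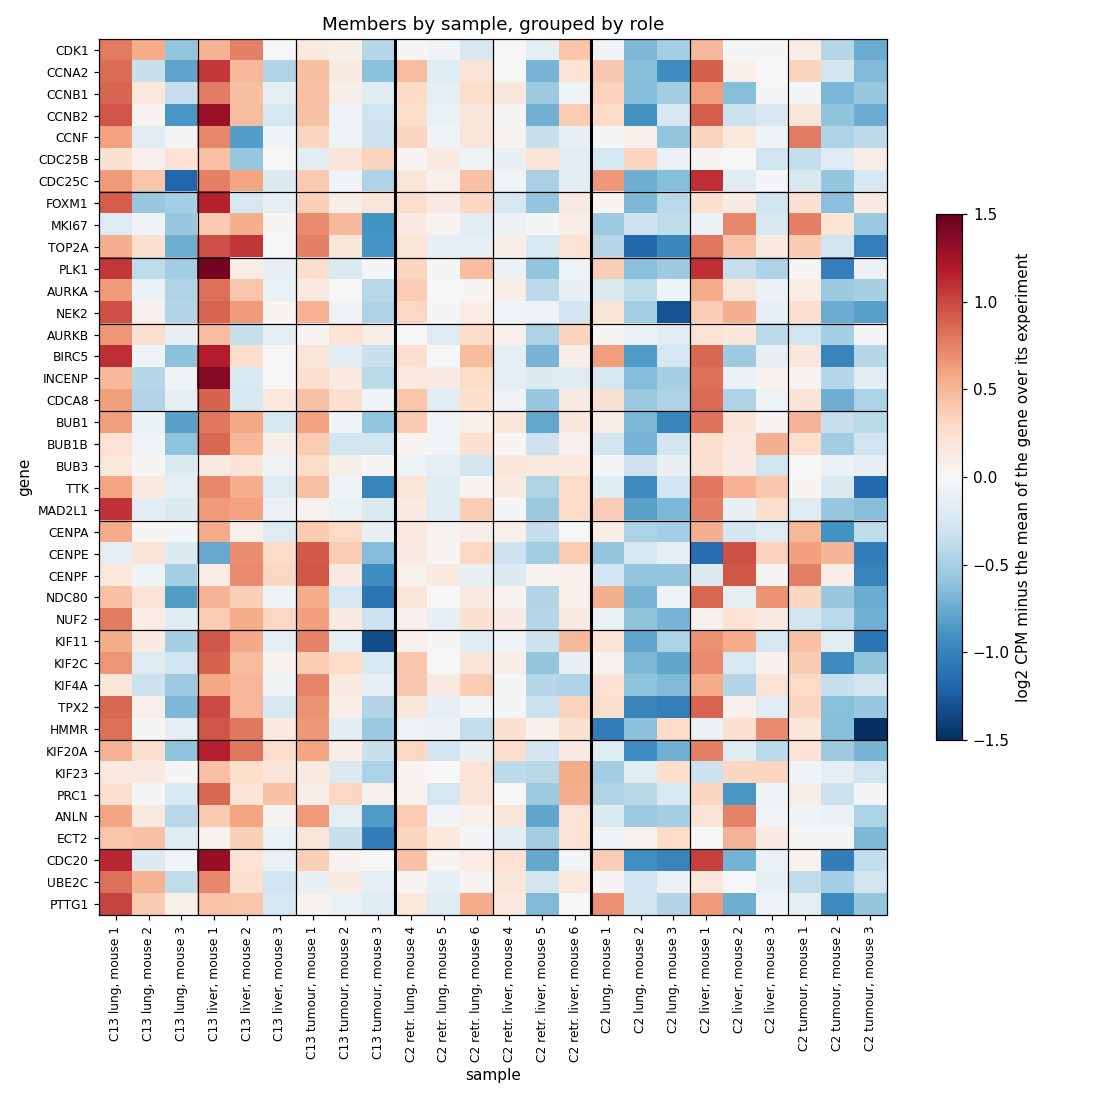
Log2 CPM of each of the 40 genes (rows, grouped by role) minus the mean of that gene over its experiment, by sample (columns; retr., retransplantation). Red is above and blue below the mean. The lung, liver and tumour columns of mouse 1 in subclone 13 are mostly red, the rows of CDC25B, BUB3 and KIF23 stay pale in most samples, and CENPE is blue in the liver columns of mouse 1, where most other genes are red.

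Exons of FOXM1, PLK1, ANLN and KIF23, described here, overlap those of a gene on the other strand, and those of BUB1B a read-through gene on its own strand. By sample, FOXM1, the transcription factor of G2 genes, had 184, 66.2 and 68.9 CPM in lung, 220, 82.2 and 88.9 CPM in liver and 126, 104 and 111 CPM in tumour of subclone 13 in mice 1, 2 and 3. For subclone 2 the values were 100, 61.4 and 74.0 CPM in lung, 116, 107 and 79.9 CPM in liver and 115, 63.6 and 108 CPM in tumour, and in its retransplanted cells 153, 140 and 158 CPM in lung and 107, 85.0 and 140 CPM in liver. Mouse 1 was the highest in all 6 groups of the first experiment. MKI67 had 209, 233 and 162 CPM in liver of subclone 13 and 150, 262 and 135 CPM in liver of subclone 2, and with its lung values given above the lung and liver groups did not overlap in either subclone, while tumour values spanned both. In retransplanted cells MKI67 had 241, 228 and 198 CPM in lung, against 208, 219 and 235 CPM in liver, which overlapped.

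CCNB1, the cyclin that starts mitosis, had 246, 150 and 106 CPM in lung, 229, 184 and 122 CPM in liver and 182, 143 and 118 CPM in tumour of subclone 13. The values of subclone 2 were 170, 85.6 and 93.8 CPM in lung, 207, 85.9 and 132 CPM in liver and 133, 83.5 and 90.4 CPM in tumour. All these groups overlapped. Retransplanted cells had 216, 160 and 212 CPM in lung, against 198, 122 and 168 CPM in liver, higher in lung within each mouse. PLK1, the kinase of centrosome maturation and mitotic exit, had 87.9, 32.3 and 29.4 CPM in lung, 114, 45.5 and 38.6 CPM in liver and 50.7, 36.3 and 41.3 CPM in tumour of subclone 13. Subclone 2 showed 54.5, 27.3 and 29.1 CPM in lung, 90, 33.1 and 30.6 CPM in liver and 43.2, 20.8 and 39.8 CPM in tumour. Liver was above lung within each mouse of the first experiment, by little in mouse 3 of subclone 2.

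AURKB, the kinase of the chromosomal passenger complex, had 63.6, 47.7 and 37.1 CPM in lung, 56.0, 31.8 and 36.5 CPM in liver and 41.2, 47.1 and 43.2 CPM in tumour of subclone 13. Cells of subclone 2 had 41.0, 38.2 and 36.4 CPM in lung, 47.1, 45.7 and 30.7 CPM in liver and 32.9, 28.5 and 39.6 CPM in tumour. Its lung and liver values overlapped in both subclones, as they did in retransplanted cells, with 65.7, 57.6 and 79.9 CPM in lung and 69.5, 47.6 and 83.3 CPM in liver. BUB1 had 84.4, 50.9 and 30.9 CPM in lung, 94.1, 80.8 and 46.0 CPM in liver and 82.8, 52.3 and 36.5 CPM in tumour of subclone 13, and 77.7, 43.0 and 41.1 CPM in tumour of subclone 2. Liver was the highest organ for BUB1 in every mouse of both subclones.

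CENPF, a large kinetochore protein, had 172, 147 and 109 CPM in lung, 166, 251 and 191 CPM in liver and 294, 169 and 81.0 CPM in tumour of subclone 13. For subclone 2 the values were 126, 103 and 103 CPM in lung, 132, 294 and 156 CPM in liver and 260, 165 and 76.6 CPM in tumour. Tumours of mouse 1 were thus its highest or near its highest samples and tumours of mouse 3 its lowest. Retransplanted cells had 210, 222 and 187 CPM in lung and 175, 210 and 213 CPM in liver. KIF11, the kinesin that pushes the spindle poles apart, had 117, 86.4 and 56.1 CPM in lung, 151, 118 and 72.2 CPM in liver and 133, 72.5 and 31.6 CPM in tumour of subclone 13. The values of subclone 2 were 91.7, 46.3 and 57.2 CPM in lung, 128, 117 and 66.6 CPM in liver and 108, 71.1 and 37.5 CPM in tumour. Within each mouse of the first experiment KIF11 was highest in liver, and in retransplanted cells it had 104, 101 and 87.8 CPM in lung against 94.9, 79.6 and 140 CPM in liver.

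ANLN, the actin-binding scaffold of the contractile ring, had 301, 219 and 150 CPM in lung, 262, 302 and 205 CPM in liver and 310, 182 and 111 CPM in tumour of subclone 13. Subclone 2 showed 172, 137 and 142 CPM in lung, 229, 335 and 194 CPM in liver and 192, 187 and 144 CPM in tumour. There all 3 lung values lay below all 3 liver values (-0.75 ± 0.33, edgeR, adjusted p = 0.483 without and 0.0857 with the mouse term). Retransplanted cells had 333, 248 and 270 CPM in lung, against 287, 149 and 296 CPM in liver. CDC20, the activator of the anaphase-promoting complex, had 147, 58.3 and 65.5 CPM in lung, 167, 77.5 and 63.0 CPM in liver and 86.2, 69.4 and 66.8 CPM in tumour of subclone 13. Cells of subclone 2 had 87.1, 35.7 and 33.7 CPM in lung, 137, 41.2 and 62.9 CPM in liver and 69.7, 32.7 and 52.3 CPM in tumour. The lung and liver values of CDC20 overlapped in both subclones, and retransplanted cells had 94.6, 71.4 and 75.4 CPM in lung against 80.7, 40.8 and 67.5 CPM in liver.

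Of the other members, BUB3, a checkpoint protein that also works outside mitosis, stayed between 188 and 283 CPM in all 18 samples of the first experiment, and CDC25B between 100 and 201 CPM. HMMR (1.89 to 10.5 CPM), PRC1 (4.71 to 15.6 CPM), CDC25C (4.30 to 21.0 CPM) and CENPA, the histone H3 variant of centromeres (6.37 to 17.5 CPM), were counted least. CCNB2 spanned 23 to 105 CPM, MAD2L1, the MAD2 of the checkpoint, 36.1 to 134 CPM, BIRC5, the survivin subunit of the passenger complex, 42.0 to 188 CPM, and KIF2C, which removes tubulin from kinetochore microtubules, 35.9 to 128 CPM. AURKA spanned 43.7 to 114 CPM, CDCA8 18.4 to 56.7 CPM, NDC80 14.1 to 54.8 CPM, CCNF 8.89 to 26.9 CPM and UBE2C 107 to 269 CPM. In the 14 comparisons edgeR, without or with the mouse term, called none of these 15 genes.

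Other genes of the cell cycle were read from lists. In lung against liver of subclone 2, 61 other mitosis genes had a median log2 fold change of -0.37, 38 S phase and replication genes -0.33, and 17 DREAM, MuvB and RB regulators -0.41, against -0.54 for the members. The 15 subunits of the anaphase-promoting complex, which is present through the cycle, had -0.01. Without the mouse term 0 of these genes were called in that comparison. With it, beside 2.95% of all genes, 1 of 61 other mitosis genes was called lower in lung (CKAP5, which lengthens microtubules, -0.77 ± 0.20, edgeR, adjusted p = 0.0453), 2 of 38 S phase genes (MCM2, of the replicative helicase, -0.96 ± 0.22, adjusted p = 0.0251, and DTL, -0.88 ± 0.21, adjusted p = 0.026), and 1 of 17 regulators (RBL1, the p107 subunit of DREAM, -1.0 ± 0.20, adjusted p = 0.0113). MCM2 had 42.2, 21.5 and 26.5 CPM in lung, against 83.5, 48.3 and 43.6 CPM in liver, without overlap.

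Of 12 CDK inhibitors and genes of G1 arrest that passed the filter, 3 were called higher and 1 lower in lung than in liver of subclone 2 with the mouse term (2.95% of all genes were called), and 0 without it (0.023%). BTG2, an anti-proliferative gene, had 0.726, 7.93 and 9.25 CPM in lung, against 1.03, 0.436 and 0.502 CPM in liver (3.22 ± 0.81, edgeR with the mouse term, adjusted p = 0.0387), and mouse 1 went against the call. GADD45B had 167, 208 and 542 CPM in lung, against 122, 62.7 and 231 CPM in liver (adjusted p = 0.0347 in that fit), and GADD45A, also a stress gene, had 223, 234 and 152 CPM, against 108, 95.2 and 138 CPM (adjusted p = 0.0476). Cyclin CCNG2, known from arrested cells, was lower, with 38.9, 31.4 and 32.8 CPM in lung, against 65.9, 60.3 and 62.5 CPM in liver (-0.88 ± 0.19, adjusted p = 0.0169). In retransplanted cells BTG2 was higher in lung again, with 9.64, 31.0 and 15.3 CPM, against 1.91, 7.84 and 3.99 CPM in liver (2.07 ± 0.21, edgeR with the mouse term, adjusted p = 0.0167). It was the 1 gene called of the 12 (0.479% of all genes), and 0 were called without the mouse term.

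In liver against tumour, the 38 S phase genes had medians of -0.01 in subclone 13 and 0.14 in subclone 2, where the members had 0.39 and 0.49 and the 61 other mitosis genes 0.20 and 0.33. With the mouse term 0 of the S phase genes were called in either subclone, beside 1.83% of all genes in subclone 13 and 1.68% in subclone 2. In subclone 2, 1 of the 61, the kinetochore subunit SPC24, was called, beside the same 1.68% of all genes. SPC24 had 32.8, 8.74 and 11.4 CPM in liver, against 11.1, 5.86 and 5.64 CPM in tumour (1.08 ± 0.26, edgeR with the mouse term, adjusted p = 0.0372, and 0.715 without it). In mouse 1 the gap was the widest. E2F7, a repressor of E2F targets and 1 of the 17 regulators, was called lower with that term, and not without it, in lung than in tumour of both subclones and in liver than in tumour of subclone 13. The shares of all genes called in these fits were 2.89%, 3.05% and 1.83%. Genes of other lists were called too, among them POLA1, CDKN1C and GADD45B in lung and PLK2, CCNG1 and GADD45A in liver against tumour of subclone 13. E2F7 had 61.3, 70.5 and 81.6 CPM in lung and 59.8, 64.9 and 62.1 CPM in liver of subclone 13, against 122, 89.2 and 170 CPM in tumour (-0.82 ± 0.20 for lung, adjusted p = 0.0328, and -1.0 ± 0.20 for liver, adjusted p = 0.0121, both edgeR with the mouse term). Whether any of these lists differs from the members was not tested.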

How the data were processed

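RNA of sorted human cells of 2 subclones was sequenced from 24 samples of 6 mice (30 libraries). The authors deposited 2 tables of raw counts, with a column for every library and 38526 or 36291 genes. Per the submitters' processing notes, GRCh38 was used, and featureCounts, STAR, cutadapt and bcl2fastq (2.15.0.4) are listed. Libraries were made with the TruSeq RNA kit v2, per the labels' protocols. This kit loses the strand, and counts of genes that overlap on opposite strands cannot be separated, which touches 14 of the 40 members.

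The 9 libraries of subclone 13 in mouse 1 were summed to 1 sample per organ; 6 are called technical replicates, per the labels. Gene coordinates and exon lengths are from GENCODE v29. Genes were filtered with filterByExpr and fitted with edgeR 4.0.16 (TMM, quasi-likelihood F test, R 4.3.3) over all groups of an experiment, which left 17418 and 17549 genes, and 19721 in the joint fit. SE is the log2 fold change over the square root of F. CPM and FPKM are scaled by TMM, marker sums by total counts, and means of log2 CPM use a prior count of 1. Promoters are from RefSeq (GRCh38.p14).

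The members, the lists and the rule for genes given in full were chosen with earlier results of these data known. That rule took called members, the 2 smallest p values in each organ comparison with none called, and 1 anchor gene per role or complex. The other genes given by sample were chosen after their values were seen.

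A shared number marks 1 mouse, per the labels. The samples' deviations from group means correlated at a median of 0.336 over 45 pairs (lowest 0.157), against -0.233 over 90 pairs of different mice, and at 0.30 over 3 pairs in the retransplantation (lowest 0.271). The mouse term lowered the biological coefficient of variation from 0.476 to 0.33. In the first experiment it also takes up differences between runs. The edgeR fit without the mouse term was tested on simulated counts with no mouse effect and less spread than these data. The fit with the term was not tested in this way. Alternatives were DESeq2 1.42.0, RLE size factors, no filter, only libraries not called technical, only the groups compared, and leaving out mice and samples. Statements on samples are about 3 mice per group. Without the mouse term, p-values rest on the spread among samples within groups, pooled over groups, and take samples of 1 mouse as independent. With the term, they rest on the spread that is left once differences between mice are removed.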

Additional observations from a re-analysis of the deposited data

Results flagged for a closer look

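In subclone 2, lung minus liver had opposite signs in the 2 experiments. The mean log2 CPM of the members was higher in lung in the retransplanted mice (0.19, 0.35 and 0.00) and lower in all 3 mice of the first experiment (-0.45, -0.60 and -0.45), a difference of 0.68 between the means. The value of mouse 6 is positive only before rounding, and on total counts it was -0.11. For 16 of 40 members (40%), lung was above liver in all 3 retransplanted mice and below it in all 3 mice of the first experiment, where 3.01% of 16588 genes tested in both experiments showed this. They were CCNB1, CCNF, CDC25C, FOXM1, PLK1, NEK2, BIRC5, INCENP, CDCA8, BUB1B, MAD2L1, CENPA, NDC80, KIF2C, KIF4A and CDC20. This difference in the mean and in the count was not tested, and the test by gene called 0 of 40 members.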

How the results depend on the processing

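In 14 comparisons and 292 alternative fits, the number of called members stayed at 0 in 282. With the replicate block (mouse), 6 members were called in lung against liver of subclone 2 (2.95% of all genes) and 1 in liver against tumour of subclone 2 (1.68%). The block changed no other call of a member. For lung against liver of subclone 2, no filter on low counts gave 1, and the block with RLE size factors 6 (519 of 17418 genes called). The block without mouse 1 gave 6 (542 of 17921), without mouse 3 gave 2 (83 of 17397), and with only the groups compared 3 (259 of 17041). The block with only the groups compared also called 3 in lung against liver of subclone 13 (640 of 14972 genes). It called 3 in subclone 13 against 2 in lung (510 of 15031), where the block without mouse 3 called 1 (88 of 17397). The fits that add a choice to the block were chosen after seeing the data. Fits without the block that left out a mouse or a sample called 0 in all comparisons. The cause was not tested.

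The members' median kept its sign in all alternatives for lung against liver (-0.62 to -0.02 in subclone 13, -0.77 to -0.36 in subclone 2, 0.03 to 0.29 in the retransplantation) and liver against tumour (0.17 to 0.64 and 0.25 to 0.75). In lung against tumour it ranged from -0.22 to 0.36 in subclone 13 and from -0.28 to 0.15 in subclone 2, so its sign was not stable. Each member had at least 33 reads in every sample.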
